A study of Mus musculus with 9 samples.

Results

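The 7 genes described here act in the response of cells to stress and in the death that can follow it: Atf4 and Ddit3, transcription factors of the integrated stress response, Asns, Phgdh and Psat1, amino acid enzymes whose transcription ATF4 can raise, and Pmaip1 and Bcl2, a killer and a protector of the mitochondrial death pathway. They were taken by symbol, 7 of the 10260 gene symbols in the deposited tables, and all 7 were listed and tested in every table. AML12, a line of mouse hepatocytes, was sequenced in 3 groups with 3 samples each. Controls were left untreated. The PA/OA group was kept for 24 h in PA at 0.2 mM together with OA at 0.4 mM, taken to be palmitic acid and oleic acid. The third group was given the hormone fragment Ang(1-7), at 100 nM, 30 min ahead of the same fatty acids, so it carries PA and OA as well. No group had a carrier alone, nor Ang(1-7) without fatty acids. AML12 is a single line, made from hepatocytes of mice that carry a human TGF-alpha transgene.

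In the integrated stress response, kinases that sense misfolded protein, missing amino acids, viral RNA or missing heme phosphorylate the initiation factor eIF2. General translation then slows while the Atf4 message is translated better, so ATF4 protein can rise with no change in its RNA. ATF4 switches on amino acid synthesis and transport, and with Ddit3 (CHOP) it can turn on death genes when stress lasts. In hepatocytes, saturated fatty acids such as palmitate are known for setting off this response, and oleate for blunting it. Pmaip1 encodes NOXA, a BH3-only protein that binds the BCL2 relative MCL1, and BCL2 holds back BAX and BAK at the mitochondrial membrane.

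The control regions of the amino acid enzymes are shown because ATF4 acts through a short element there, the C/EBP-ATF composite site, searched as TGATGNAA on both strands, and those of Ddit3 and Bcl2 because the first is the death-linked stress factor and the second had the largest rise of the 7 with PA and OA. Each line is the 250 bases before a RefSeq start (GRCm38.p6), 5′ to 3′ on the gene's strand, with capitals on a match: chr6:7693210-7693459 (−) for Asns, chr3:98339970-98340219 (−) for Phgdh, chr19:15925060-15925309 (−) for Psat1, chr10:127290543-127290792 (+) for Ddit3 and chr1:106714291-106714540 (−) for Bcl2.
Asns: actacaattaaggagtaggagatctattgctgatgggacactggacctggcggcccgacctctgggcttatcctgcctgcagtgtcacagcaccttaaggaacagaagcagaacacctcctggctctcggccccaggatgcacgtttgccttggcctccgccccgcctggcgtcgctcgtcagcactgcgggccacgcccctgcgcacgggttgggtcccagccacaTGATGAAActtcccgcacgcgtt
Phgdh: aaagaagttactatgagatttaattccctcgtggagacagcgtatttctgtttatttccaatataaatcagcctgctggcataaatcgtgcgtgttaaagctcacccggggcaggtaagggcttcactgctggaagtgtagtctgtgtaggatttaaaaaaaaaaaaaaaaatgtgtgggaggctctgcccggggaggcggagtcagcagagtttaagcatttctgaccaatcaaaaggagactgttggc
Psat1: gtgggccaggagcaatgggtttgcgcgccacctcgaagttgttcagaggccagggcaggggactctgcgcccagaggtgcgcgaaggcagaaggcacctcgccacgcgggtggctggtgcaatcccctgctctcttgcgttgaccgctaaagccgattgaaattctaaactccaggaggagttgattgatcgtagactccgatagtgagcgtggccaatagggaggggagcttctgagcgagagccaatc
Ddit3: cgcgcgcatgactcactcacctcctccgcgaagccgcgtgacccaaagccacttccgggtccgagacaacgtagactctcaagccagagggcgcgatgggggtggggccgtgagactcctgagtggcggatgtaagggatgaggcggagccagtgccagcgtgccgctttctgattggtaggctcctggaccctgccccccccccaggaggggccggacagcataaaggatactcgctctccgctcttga
Bcl2: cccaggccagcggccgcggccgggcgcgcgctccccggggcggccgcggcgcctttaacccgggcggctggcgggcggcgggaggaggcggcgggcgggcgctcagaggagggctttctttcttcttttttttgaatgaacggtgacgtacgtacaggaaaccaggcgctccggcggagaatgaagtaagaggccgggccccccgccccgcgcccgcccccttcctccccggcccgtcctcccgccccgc
The Asns window held TGATGAAA at −23 to −16 from the start. The windows of Phgdh, Psat1, Ddit3, Bcl2 and Atf4 held no TGATGNAA, and none of the 6 genes held the cAMP response element TGACGTCA. Of 32851 promoters of the same length, 3.45% held the first motif and 1.55% the second. A match is a description of letters, not of binding, and a missing one says only that the letters are not in this window.

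Listed counts per library ran from 24588312 to 28704499, and Ddit3, with the fewest counts of the 7, had 136 to 250 counts. Krt8 and Krt18, keratins of hepatocytes and other simple epithelia, had 230868 to 355528 counts each, and Trf, the transferrin gene, had 11934 to 24120. Alb had only 80 to 550 and Hnf4a 104 to 251, so the listed liver markers spanned a wide range in every group, with albumin low. Ttr ran lower in PA/OA (64 to 125 counts) than in controls (233 to 422), and so did Hnf4a (111 to 157 against 158 to 251). Trf ran higher in PA/OA (15270 to 18142 against 11934 to 14074), and Alb overlapped between them. Ang(1-7) 2 stood apart, with r = 0.917 to 0.937 across genes against the other 8 libraries, whose lowest r was 0.969. In Ang(1-7) 2 and 3, all 8 listed neuron and glia markers other than Mbp had counts (95.4 and 49.3 CPM in sum), against 1 or 2 of 8 (0.565 to 0.917 CPM) in Ang(1-7) 1 and the PA/OA libraries. Their listed stellate cell markers summed to 16.7 and 12.6 CPM, against 5.98 to 8.91, and endothelial markers to 0.0382 to 1.81 CPM in all 6. Macrophage markers, 3 of 6 listed, summed to 587 to 626 CPM in controls and 674 to 816 CPM in PA/OA, nearly all of it Cd14 (15401 to 20909 counts). Cd68 (39 to 112 counts in controls, 77 to 126 in PA/OA) and Lyz2 (26 to 150 and 35 to 106) overlapped between the groups. The part of any of these markers in the results was not tested. The summed-gene differences of the 7 genes in Ang(1-7) are therefore given with and without Ang(1-7) 2.

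Levels of the 7 genes are given in CPM over the transcripts that all 3 tables list. The 9 libraries can then be set side by side. For this, each library's total was multiplied by its TMM scaling factor, from 0.934 in Ang(1-7) 2 to 1.04 in Ang(1-7) 3. Levels of the pathway list genes are CPM from the table of their pair, with TMM scaling within that table. The marker sums above are CPM of the listed total of 1 table, without TMM scaling. Fold changes come from the table of each pair, as log2 with the standard error of edgeR's quasi-likelihood test, and adjusted p is that test's Benjamini-Hochberg value over all genes of the table. A gene is called under an adjusted p of 0.05. In bulk RNA, fewer cells with a transcript and less of it per cell cannot be told apart, and the labels do not say whether samples were separate cultures, so p-values measure the spread between samples only, which may be technical.

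In cells given PA and OA, both death regulators rose and 1 amino acid enzyme fell, while neither stress factor was called. Bcl2 was 1.52-fold and Pmaip1 1.29-fold the control level, and Phgdh was 0.882 times it. Those 3 were called of 7 members, against 5.05% of the 6213 genes tested. The 2 higher stand against a background of 2.82% called higher, and the 1 lower against 2.24% called lower. In 5 of the 7 genes, the 3 PA/OA libraries did not overlap the 3 controls, which held for 23.8% of all genes. The members were chosen with earlier results known, so these shares describe them and test nothing.

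**Figure D1:**
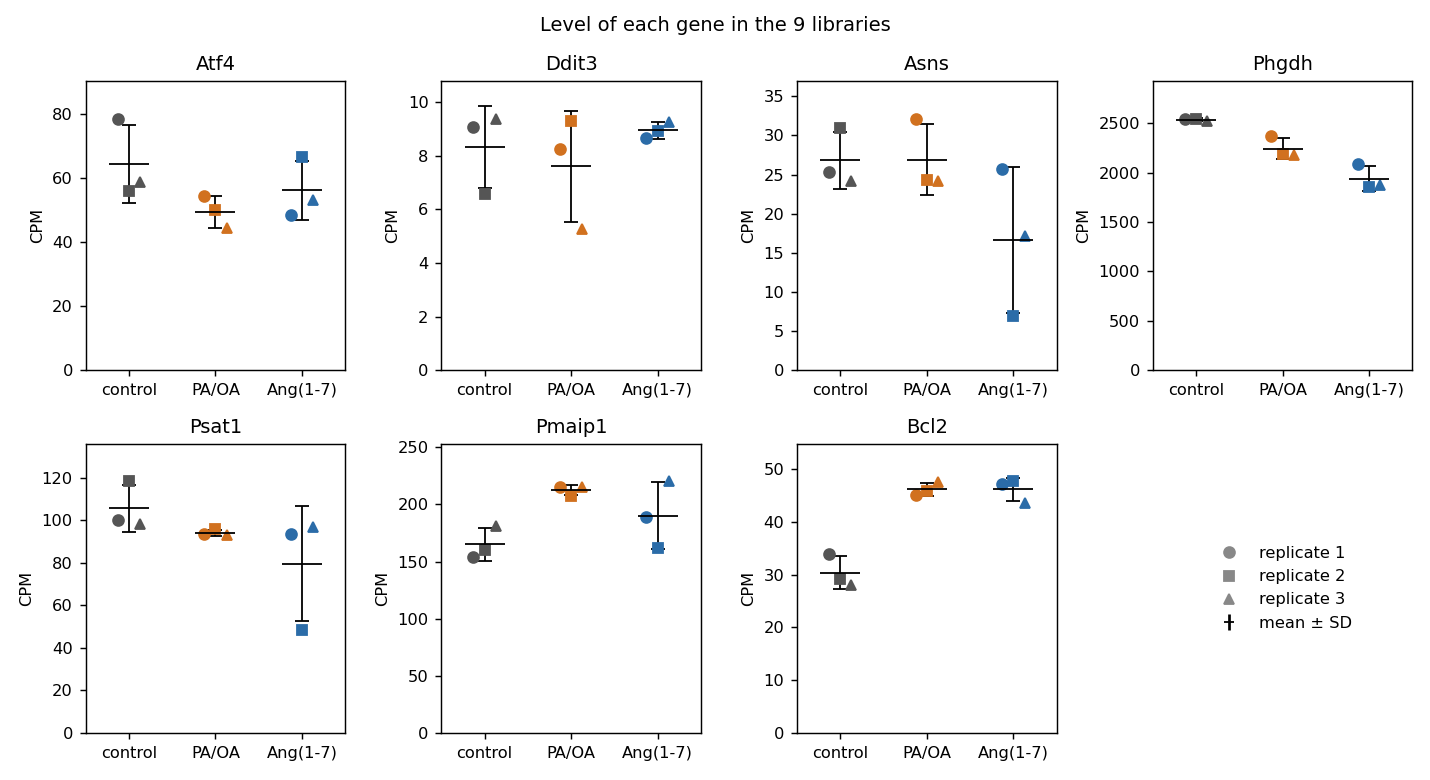
Level of the 7 genes in each library (CPM, linear axes from 0), by group, with a marker shape per replicate number and the mean ± SD (n = 3) in black. Bcl2 and Pmaip1 lie higher in PA/OA than in control, Phgdh steps down over the 3 groups, and Asns and Psat1 are lowest in Ang(1-7) 2.

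Among the transcription factors, Atf4, the translation-controlled activator of the response, had 78.5, 56.1 and 58.8 CPM in controls and 54.3, 49.9 and 44.4 CPM in PA/OA. All 3 PA/OA libraries lay below the lowest control, but control 1 alone was far above the rest. The log2 difference was −0.38 ± 0.14 (95% interval −0.68 to −0.09), with an adjusted p of 0.132 by edgeR, so Atf4 was not called. Without control 1 it was −0.22, again not called (adjusted p = 0.496).

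Ddit3, the ATF4 target that encodes CHOP, had 9.06, 6.59 and 9.38 CPM in controls and 8.24, 9.28 and 5.28 CPM in PA/OA. The groups overlapped, with PA/OA 3 below every control. The log2 difference was −0.14 ± 0.32 (adjusted p = 0.876, edgeR), and its interval of −0.80 to 0.52 leaves room for a fold of 0.575 to 1.44. The difference was 0.068 without PA/OA 3, that lowest library.

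Ddit3 counts came from 2 listed transcripts, 1 curated and 1 predicted by RefSeq, and they did not share a pattern. The curated one had 66, 110 and 114 counts in controls, 46, 87 and 47 in PA/OA and 51, 33 and 82 in Ang(1-7). The predicted one had 179, 67 and 131 counts in controls, 167, 151 and 89 in PA/OA and 167, 205 and 168 in Ang(1-7). Control 2 was thus the library with the fewest predicted and among those with the most curated counts. Between PA/OA and control the log2 difference was −0.64 ± 0.50 for the curated transcript (adjusted p = 0.549) and 0.16 ± 0.42 for the predicted one (adjusted p = 0.907), by edgeR over transcripts. Between Ang(1-7) and control it was −0.80 ± 0.52 (adjusted p = 0.503) and 0.52 ± 0.42 (adjusted p = 0.577). How reads that fit both transcripts were assigned is not given in the sources used here, so the split may follow the counting. In the reference annotation the Ddit3 exons also share 68 bases with Mars and 13 with Gm4189, both on the opposite strand, and whether the counting used strand is not given either.

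**Figure D2:**
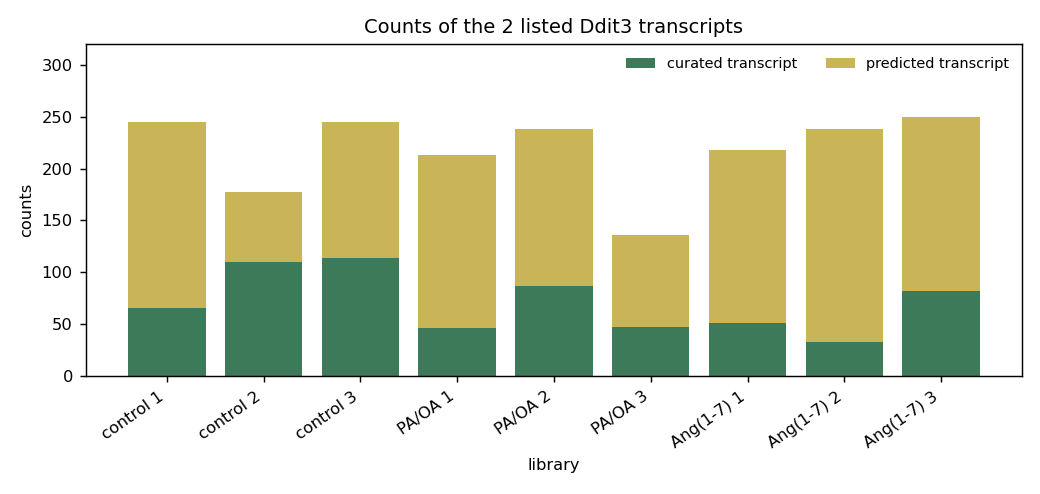
Counts of the curated and the predicted Ddit3 transcript in each of the 9 libraries, stacked to the summed count used for the gene. The sum stays between 136 and 250 while the curated part moves between 33 and 114.

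Among the amino acid enzymes, Phgdh, which takes 3-phosphoglycerate into serine synthesis, was by far the most abundant of the 7, also per kilobase. It had 2547, 2547 and 2523 CPM in controls and 2370, 2188 and 2178 CPM in PA/OA. The controls had an SD of 13.7 CPM, and every PA/OA library was below them. The log2 difference was −0.18 ± 0.05 (95% interval −0.29 to −0.07), with an edgeR adjusted p of 0.0488, just inside the threshold. The call was lost without control 1 (adjusted p = 0.152), control 2 (0.121), control 3 (0.124), PA/OA 2 (0.182) and PA/OA 3 (0.164), while the difference stayed between −0.23 and −0.16.

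Psat1, the aminotransferase that acts right after Phgdh, had 100, 118 and 98.4 CPM in controls and 93.7, 95.9 and 93.0 CPM in PA/OA. The PA/OA libraries lay below the controls by a narrow gap and spread less. The log2 difference of −0.17 ± 0.10 was close to that of Phgdh but was not called (adjusted p = 0.406, edgeR).

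Asns, which makes asparagine and carries the composite site shown above, had 25.3, 31.0 and 24.1 CPM in controls and 32.1, 24.3 and 24.2 CPM in PA/OA. One library of each group was high, and the rest were level. The log2 difference was 0.00 ± 0.18 (adjusted p = 0.998, edgeR), and its interval leaves room for a fold of 0.773 to 1.29.

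Among the death regulators, Pmaip1, the NOXA gene and a target of both p53 and ATF4, had 154, 160 and 181 CPM in controls and 215, 208 and 216 CPM in PA/OA. The highest control lay below the lowest PA/OA library. Pmaip1 rose by 0.36 ± 0.09 on the log2 scale (95% interval 0.18 to 0.54, adjusted p = 0.0166, edgeR). The call was lost without control 1 (adjusted p = 0.112), control 2 (0.0602) or PA/OA 3 (0.0745), with the rise between 0.31 and 0.44 whichever library was left out.

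Bcl2 had 33.9, 29.1 and 28.0 CPM in controls and 45.2, 45.8 and 47.5 CPM in PA/OA. The groups were separated by more than the spread of either one. Bcl2 rose by 0.60 ± 0.15 on the log2 scale (95% interval 0.30 to 0.91, adjusted p = 0.0191, edgeR). The call was lost without control 2 (adjusted p = 0.0601), control 3 (0.0689), PA/OA 2 (0.0687) or PA/OA 3 (0.0848), with the rise between 0.55 and 0.69. Its exons share 558 bases with D630008O14Rik on the opposite strand in the annotation. Bcl2 and Pmaip1, with opposing roles in cell death, thus both rose.

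A fit of all 9 libraries together, over the transcripts in all 3 tables, called none of these 3 genes in PA/OA, with an adjusted p of 0.511 for Phgdh, 0.349 for Pmaip1 and 0.138 for Bcl2 (edgeR). The differences themselves were alike, at −0.18, 0.37 and 0.60. That fit includes Ang(1-7) 2 in its estimate of spread.

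The neighbours of the 7 genes in the same pathways were read from 11 lists, of which 132 genes were tested in PA/OA against control. Of these 132, 5 were called higher and 4 lower, or 6.82%, near the 5.05% of all genes. The fit of all 9 libraries called none of 131, with an edgeR adjusted p of 0.22 for Eif2ak2, 0.239 for Cebpd, 0.328 for Fosl2, 0.383 for Hmox1, 0.521 for Cycs, 0.636 for Ahcy and 0.675 for Dnajc3. Upstream of Atf4, Eif2ak2, the eIF2 kinase of viral RNA (PKR), rose by 0.51 ± 0.11 (adjusted p = 0.0113, edgeR) and was the 1 gene called of 10 eIF2 kinases, subunits and phosphatase genes, whose median was 0.03. Of 11 partner bZIP factors, which pair with ATF4 or CHOP or share their class, 2 were called. Cebpd, an acute phase factor, rose from 2.84 ± 0.290 to 8.64 ± 3.06 CPM (1.60 ± 0.38, adjusted p = 0.0168), and Fosl2, an AP-1 subunit, by 0.54 ± 0.11 (adjusted p = 0.00568). The bZIP list had a median of 0.20, against 0.01 over all genes tested. The Eif2ak2 call was lost when control 1 (adjusted p = 0.0758) or PA/OA 3 (0.0562) was left out, and that of Fosl2 when control 1 was (0.0555). That of Cebpd was lost on leaving out control 1 (0.0637), control 2 (0.0535), PA/OA 1 (0.0993) or PA/OA 2 (0.0501).

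Around Phgdh and Psat1, 1 of 10 serine, glycine and one-carbon genes was called. Ahcy, which clears S-adenosylhomocysteine, fell by 0.24 on the log2 scale (SE 0.06, adjusted p = 0.0227, edgeR), from 716 ± 10.1 to 606 ± 3.34 CPM. The difference was negative in 8 of the 10, with a median of −0.14. Over all 6213 genes tested it was positive in 3231, and whether the list moved as a set was not tested. The 18 other genes of amino acid synthesis and transport had a median of −0.02. None of 13 cytosolic aminoacyl-tRNA synthetases was called by edgeR, and those of lowest p were Tars at −0.18 ± 0.06 (adjusted p = 0.115) and Iars at 0.81 ± 0.32 (adjusted p = 0.152). Ahcy stayed called only without PA/OA 1 (adjusted p up to 0.102 otherwise).

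Of 13 other targets of ATF4 and CHOP, Hmox1, the heme oxygenase, rose by 0.45 ± 0.12 (adjusted p = 0.0266, edgeR), with a list median of 0.18. Of 19 genes of ER chaperones and the other unfolded protein branches, Dnajc3, an inhibitor of eIF2 kinases, rose by 0.27 ± 0.08 (adjusted p = 0.0466). The difference was positive in 16 of the 19, with a median of 0.08, against 3231 positive of all 6213 genes. Whether the list moved as a set was not tested. Hmox1 stayed called in 1 of 6 fits that left out a library, that without control 1 (adjusted p from 0.0261 to 0.109), and Dnajc3 in none (0.0517 to 0.189).

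In the death pathway, 2 of 7 other anti-apoptotic BCL2 family genes were tested, and neither was called. Mcl1, the NOXA partner, was level at 482 ± 12.5 and 491 ± 27.4 CPM (0.03 ± 0.07, adjusted p = 0.889, edgeR), and Bcl2l1, encoding BCL-XL, differed by 0.00 ± 0.37. Of 8 effector and BH3-only genes none was called by edgeR. Those of lowest p by edgeR were Bok at 0.55 ± 0.18 (adjusted p = 0.0800) and Bcl2l11, encoding BIM, at 0.97 ± 0.42 (adjusted p = 0.199). Both had PA/OA libraries above every control, but they were picked by low p, and the groups did not overlap for 23.8% of all genes. Of 15 apoptosome, caspase and inhibitor genes, Cycs, cytochrome c, fell by 0.23 (SE 0.06, adjusted p = 0.0382). Of 13 genes of p53 and its targets, Perp, a membrane protein of desmosomes and apoptosis, fell by 0.32 (SE 0.06, adjusted p = 0.00473), from 674 ± 27.0 to 539 ± 13.3 CPM. Perp was called whichever of the 6 libraries was left out, but not in the fit of all 9 libraries (adjusted p = 0.539, edgeR), whereas Cycs was called only without PA/OA 1 (adjusted p up to 0.126 otherwise). The p53 list, which does not count Pmaip1, had a median of −0.10.

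**Figure D3:**
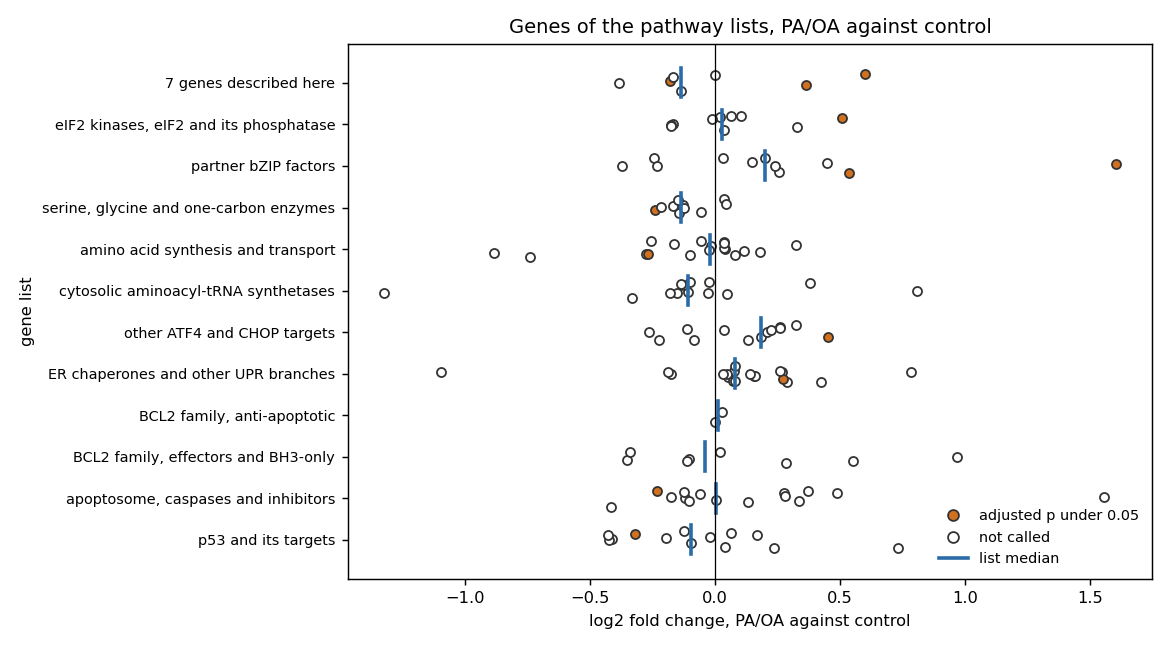
Log2 fold change of PA/OA against control for each tested gene of the 7 described and of the 11 pathway lists, with filled points for genes called by edgeR and a bar at each list's median. Called genes are few in every list, the bZIP median lies at 0.20 and the serine list at −0.14.

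Ang(1-7) ahead of the fatty acids was compared with the fatty acids alone, which asks what the peptide adds. No gene of 9261 was called by edgeR (0%), with 236 at an unadjusted p under 0.05 and 3 called by DESeq2. The 7 members were therefore not called either, and in 1 of 7, Phgdh, the groups did not overlap, against 11% of all genes. Both comparisons of Ang(1-7) share libraries with those already described: the PA/OA libraries here, and the controls further on.

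Bcl2 was the most level of the 7, at 47.2, 47.6 and 43.7 CPM in Ang(1-7) against 45.2, 45.8 and 47.5 CPM in PA/OA. The groups overlapped fully, with a log2 difference of 0.02 ± 0.15, and of 0.02 ± 0.13 without Ang(1-7) 2. The 95% interval of the fold ran from 0.805 to 1.27. Pmaip1 had 189, 162 and 220 CPM in Ang(1-7), spanning nearly the whole range from control to PA/OA. Its difference was −0.16 ± 0.14, and −0.05 without Ang(1-7) 2.

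Phgdh had 2084, 1858 and 1874 CPM in Ang(1-7), each below the lowest PA/OA library. The log2 difference was −0.21 ± 0.10 (adjusted p = 0.965, edgeR). Without Ang(1-7) 2 it was −0.17 ± 0.07. Across the 9 libraries the levels of Phgdh thus ran from control through PA/OA to Ang(1-7) with no overlap between neighbouring groups, although the second step was not called.

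Asns and Psat1 varied most within Ang(1-7). Asns had 25.7, 6.98 and 17.2 CPM and Psat1 93.8, 48.6 and 96.7 CPM, both lowest in Ang(1-7) 2. The log2 differences from PA/OA were −0.67 ± 0.39 and −0.24 ± 0.24, and became −0.29 and 0.03 without that library. Asns lay below every PA/OA library in Ang(1-7) 3 as well, and its difference was −0.08 with both Ang(1-7) 2 and 3 left out. For Asns, Psat1 and Bcl2, the differences from PA/OA also count a minor transcript that the levels leave out (1 to 87 counts per library). On the main transcript alone they were −0.69 ± 0.40, −0.23 ± 0.24 and 0.01 ± 0.15.

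Atf4 had 48.6, 66.5 and 53.3 CPM and Ddit3 8.64, 8.93 and 9.27 CPM in Ang(1-7). Atf4 was highest in Ang(1-7) 2, and Ddit3 was nearly the same in all 3. Their differences from PA/OA were 0.18 ± 0.17, or 0.05 without Ang(1-7) 2, and 0.24 ± 0.30, or 0.25 without it. Neither interval excluded 0.

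None of the 159 list genes tested in this comparison was called by edgeR, with or without Ang(1-7) 2. By unadjusted p from edgeR, the lowest were Dnajb9, an ER co-chaperone (0.82 ± 0.28), Ero1l, an ER oxidase (0.33 ± 0.13), and Tnfrsf10b, a death receptor (0.46 ± 0.19). All 3 had an edgeR adjusted p of 0.965. Their Ang(1-7) libraries lay above every PA/OA library, but they were picked by low p, and the groups did not overlap for 11% of all genes. Without Ang(1-7) 2, Dnajb9 came to 0.46, Ero1l to 0.32 and Tnfrsf10b to 0.27, and without both Ang(1-7) 2 and 3 Dnajb9 came to 0.23. In the BCL2 family the lowest by edgeR were Bnip3 (0.44 ± 0.18) and Bak1, a pore former (0.48 ± 0.20). Their differences came to 0.25 and 0.28 without Ang(1-7) 2, and to 0.17 each without both Ang(1-7) 2 and 3.

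Set against untreated controls, Bcl2 was higher and Phgdh lower in the Ang(1-7) group, as in PA/OA, but no member was called. Of the 6134 genes tested, 0.245% were called, and the groups did not overlap for 3 of the 7 members, against 26.5% of all genes. Bcl2 lay above every control (0.59 ± 0.16, 1.51-fold, adjusted p = 0.173, edgeR). Phgdh lay below every control (−0.40 ± 0.09, 0.756 times, adjusted p = 0.133), and so did Psat1 (−0.42 ± 0.25, adjusted p = 0.455). Pmaip1 differed by 0.19 ± 0.14, Atf4 by −0.22 ± 0.19, Asns by −0.70 ± 0.42 and Ddit3 by 0.09 ± 0.28.

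Which genes were called depended on Ang(1-7) 2. Without it 10.2% of the genes were called, and 2 of the 7 members among them: Phgdh at −0.37 ± 0.06 (adjusted p = 0.000361, edgeR) and Bcl2 at 0.58 ± 0.16 (adjusted p = 0.0268). Pmaip1 came to 0.30 ± 0.10 (adjusted p = 0.0632), while Psat1 came to −0.16, Asns to −0.33, Atf4 to −0.35 and Ddit3 to 0.10. With all libraries, DESeq2 called 3.98% of genes, Phgdh (adjusted p = 0.0123) and Bcl2 (0.0314) included. Without both libraries that held the neuron markers, Phgdh was called at −0.29 (adjusted p = 0.0109, edgeR) on 1 Ang(1-7) library, assumed to vary as the controls do, and Bcl2 was not at 0.63 (0.144).

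**Figure D4:**
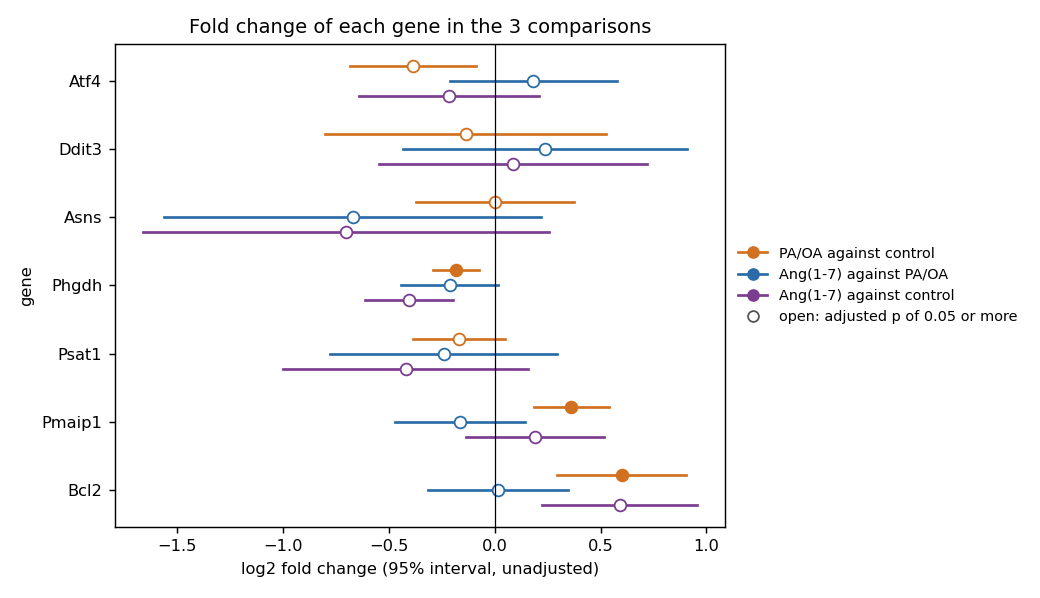
Log2 fold change of each gene in the 3 comparisons, with unadjusted 95% intervals from edgeR and filled points for genes called at an adjusted p under 0.05. The 3 called values are Bcl2, Pmaip1 and Phgdh in PA/OA against control, and the intervals of Asns in both Ang(1-7) comparisons are the widest.

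With all libraries none of 131 list genes was called against control by edgeR, and without Ang(1-7) 2, 17 were (13.0%), 11 higher and 6 lower, against the 10.2% of all genes. By direction, 320 of all 6134 genes were called higher and 304 lower. The list genes below are named after their values were seen, and no list was tested as a set. Of the serine, glycine and one-carbon list 3 of 10 were lower: Ahcy (−0.35 ± 0.06, adjusted p = 0.00163), Mthfd1 of the folate cycle (−0.29 ± 0.06, 0.00758) and Gcsh of glycine cleavage (−0.31 ± 0.09, 0.0425). Perp and Eif4ebp1, a translation repressor, were lower too. Of the ER chaperone list 4 of 19 were higher: Hsp90b1 (0.31 ± 0.05, adjusted p = 0.000523), Pdia3 (0.41 ± 0.08, 0.00221), Dnajc3 (0.35 ± 0.08, 0.00849) and Calr (0.21 ± 0.05, 0.00871). Eif2ak2, Fosl1, Fosl2, Nfe2l2, Iars, Ero1l and Bnip3 were the others higher. Without both Ang(1-7) 2 and 3, 5 of the 131 were called, or 3.82%, against 3.73% of all genes.

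Per kilobase of a curated transcript of each gene, Phgdh led in controls at 1341 ± 7.23 CPM per kb. Pmaip1 followed at 60.5 ± 5.35, Psat1 at 40.4 ± 4.20, Atf4 at 37.4 ± 7.10, Asns at 13.4 ± 1.84, Bcl2 at 4.22 ± 0.436 and the curated Ddit3 transcript at 4.08 ± 1.17 CPM per kb. Psat1 and Atf4 did not differ beyond their spread, nor did Bcl2 and the curated Ddit3 transcript. The predicted Ddit3 transcript had more counts, averaging 131 against 78.3 over the control and PA/OA libraries. No length was taken for it, so the place of Ddit3 as a whole is not known. In PA/OA no neighbours overlapped: Bcl2 stood at 6.42 ± 0.166 CPM per kb and the curated Ddit3 transcript at 2.62 ± 1.03. In Ang(1-7) Psat1 (30.5 ± 10.3) and Atf4 (32.5 ± 5.39) overlapped again, as did Asns (8.30 ± 4.68) and Bcl2 (6.42 ± 0.306).

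The genes whose log2 CPM most resembled each member over the 9 libraries were picked from 6032 genes by Pearson's r, as a description of libraries that share depth and composition. For Bcl2 they were the interferon-induced Slfn2 and the chemokine Ccl2 (both r = 0.98), and for Phgdh Stub1 (0.99) and the histone gene Hist1h2ap (0.98). Pmaip1 was most like Nectin2 (0.98) and Slc25a37 (0.93), and Atf4 like the respiratory subunit Cox5b (0.97) and Mgst3 (0.92). Ddit3 was most like Bcl2l13 (0.94) and the p53 target Cdkn1a (0.91). For Asns they were Fam134b and Pdcd11 (both 0.98) and for Psat1 Rpl34-ps1 (0.99) and Ndufb4 (0.98), 2 members whose pattern is led by their low level in Ang(1-7) 2. By rank (Spearman's rho), Ddit3 with Cdkn1a came to only 0.58, Bcl2 with Ccl2 to 0.70 and Asns with Fam134b to 0.73. The other pairs named had a rho of 0.85 or more.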

How the data were processed

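RNA of 9 AML12 samples, 3 per group, was sequenced. The authors deposited counts, as whole numbers for RefSeq transcripts, in 3 tables with 1 pair of groups in each. Per the submitters' processing notes the tools were bcl2fastq, then HISAT2 2.2.5, and HTSeq 0.11.2. The build they name is human although the transcripts are mouse, so no coordinate comes from the tables, and how reads were counted is not given in the sources used here. The deposited tables also hold the authors' log2 fold change and p-value per transcript, by a test that the headers do not name. No call here rests on those columns. Adjusted by Benjamini-Hochberg over each table's transcripts, their p-values were under 0.05 for the 3 members called by edgeR in PA/OA, and also for Atf4 (−0.41). In Ang(1-7) against control they were under it for Phgdh and Bcl2, and in Ang(1-7) against PA/OA for no member.

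Counts were summed by gene symbol. Each pair was tested in its own table, using edgeR 4.0.16 under R 4.3.3 (TMM scaling, filterByExpr, quasi-likelihood F test, Benjamini-Hochberg adjustment over all genes of the table), after a test on simulated data. DESeq2 1.42.0, limma-voom (limma 3.58.1), other scalings, a replicate block, a fit of all 9 samples, curated transcripts and left-out libraries were alternatives. Likeness used log2 CPM with a prior count of 2 and genes averaging 50 counts or more. Depth was 24588312 to 28704499 listed counts per library. Replicates differed by more than counting noise (chi-square per degree of freedom 19.7 to 34.6 without Ang(1-7) 2). Lengths and exon overlaps came from the GENCODE annotation, promoters from RefSeq. No promoter of Pmaip1 is shown.

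The members and the 11 lists (193 genes) were chosen with earlier results of these data known. Named were the 7 members, up to 5 called genes of each list and, where none was called, the 2 of lowest p, and the 2 genes most like each member. Genes called only without Ang(1-7) 2 are named outside that rule, after their values were seen, as was the setting that leaves out both Ang(1-7) 2 and 3. A gene that the rule named is not reported here.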

Additional observations from a re-analysis of the deposited data

How the results depend on the processing

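Counts of called genes moved most with the processing. In PA/OA against control, where the edgeR count was 314, DESeq2 called 537 genes and the fit of all 9 samples 33, and leaving out 1 library gave 99 (without control 1) to 397 (without PA/OA 1). In Ang(1-7) against PA/OA, DESeq2 called 3 genes, and leaving out 1 library gave 0 to 18 (18 without Ang(1-7) 1). In Ang(1-7) against control, where the count was 15, DESeq2 called 244, the fit of all 9 samples 100, curated transcripts 27 and the fit without both Ang(1-7) 2 and 3, chosen after seeing the data, 229, and leaving out 1 library gave 4 to 624 (624 without Ang(1-7) 2).

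The replicate number as a block gave 303, 0 and 10 called genes, and Phgdh in PA/OA then missed the threshold (edgeR adjusted p = 0.0560), as it did over transcripts listed in all 3 tables (0.0516). Deviations of same-numbered samples correlated at −0.099 to 0.047, so the numbers were not read as a pairing.

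Direction changed only for differences that were not called. Asns in PA/OA was −0.0031 with RLE size factors, −0.0031 with DESeq2, −0.0034 with limma-voom and −0.0027 with the replicate block, and −0.15 to 0.12 when 1 library was left out. With 1 library left out, Ddit3 ran from −0.31 to 0.068 in PA/OA and from −0.068 to 0.18 in Ang(1-7) against control, and in Ang(1-7) against PA/OA Psat1 ran from −0.41 to 0.029 and Bcl2 from −0.010 to 0.049. On curated transcripts Ddit3 was −0.15 against PA/OA and −0.79 against control in Ang(1-7), and Atf4 was −0.026 against PA/OA without both Ang(1-7) 2 and 3. The predicted Ddit3 transcript ran from −0.15 to 0.48 in PA/OA, and the curated one from −0.52 to 0.22 in Ang(1-7) against PA/OA. The cause was not tested. Ddit3 had the lowest mean count of the members, and its curated transcript had 33 counts at its lowest.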
